A study of Mus musculus with 4 samples.

Results

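The genes described here are 53 markers of the earliest lineages of the mouse embryo, followed over 4 expression arrays of stem cell cultures. They are 15 markers of endoderm, 14 of mesoderm, 12 of neuroectoderm and 12 of trophectoderm, among 18193 genes with a named probe set. Members were found by the platform's gene symbol, and all 53 were on the array. Where a gene had several probe sets, the brightest on average stood for it. "Signal" below is the array intensity after quantile normalization, and "detected" means a signal at or above the array median of 82.7. Just inside that limit lay Mixl1 on the mGS array, at 83.5, and just outside it Dab2 on the knockout array, at 80.05.

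The study set out to look for molecules in the conversion of germline stem (GS) cells into multipotent germline stem (mGS) cells. GS cells are spermatogonial stem cells propagated in culture, and mGS cells are pluripotent cells that arise from such cultures. The third array held R1, a mouse embryonic stem (ES) cell line, and the fourth held GS cells from Trp53 knockout mice, whose label adds ICR. GS and knockout GS cells grew in a modified StemPro-34 medium, while mGS and ES cells grew in ordinary ES cell medium. Strain, age and passage of the other cultures were not given in the sources used here. Medium and cell type changed together, so their parts in any difference between these pairs of arrays cannot be told apart. Each group had 1 array. No value has a replicate error, no test was possible, and every difference below is that between 2 cultures.

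In the blastocyst the trophectoderm forms the placental lineages, the primitive endoderm lines the yolk sac, and the epiblast gives rise to the embryo. At gastrulation epiblast cells become mesoderm and definitive endoderm through the primitive streak or turn into neuroectoderm. Pluripotent cells hold most regulators of these fates in a silent or weakly transcribed state, and cells that leave pluripotency switch on sets of them. Some of the genes used as markers are also active elsewhere: basement membrane genes in fibroblasts, keratins in simple epithelia, and Tfap2c in germ cells.

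Marker lists were read first as a check of the labelled cell types. Of 12 pluripotency genes, all 12 were detected on the mGS and ES arrays, while 8 were detected for GS and 9 for knockout GS cells. Sox2 gave signals of 11518 for mGS, 11768 for ES, 1070.1 for GS and 185 for knockout GS cells. Of 11 spermatogonial genes measured, 11 were detected for GS and 10 for knockout GS cells, and Dazl read 25675 and 21031 there. Against GS, however, 5 of the 11 were at least 2-fold lower on the knockout array and none higher. The share lower was 45.5%, against 6.93% of all genes. On the mGS and ES arrays 9 and 7 of the 11 were still detected, with Dazl at 569 and 128, and their summed signal was 8531 and 6431 against 64691 for GS. Etv5 was higher for mGS, reading 6360 there, 1955 for GS and 507 for knockout GS cells. Of markers of other cells, 2 to 5 of 10 Sertoli, 1 to 2 of 5 Leydig and 2 to 4 of 8 leukocyte genes were detected on an array, with the most on the ES array for Sertoli and leukocyte genes. Among those strongest on average, Rhox5 and Clu of the Sertoli list were highest on the mGS array, at 7866 and 678. So was Cyp11a1 of the Leydig list, at 329. Of the leukocyte list, Cd68 was highest there, at 970 against 177 for GS, but Laptm5 and Csf1r were highest on the ES array. These last read 339 and 169 on the ES array and 277 and 64.3 on the mGS array. The label of the knockout was not checked at its targeted gene. Added control RNAs split the arrays in another way: the dap control had a median signal as deposited of 271 on the GS and 255 on the mGS array, but of 2545 on the ES and 3055 on the knockout array. The bioC hybridisation control was low on the knockout array, at 602, against 3066 to 3499 on the others. The part of these technical differences in the results below was not tested.

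Few lineage markers were detected on all 4 arrays. Of the 53, 19 were detected on no array and 6 on all 4. The shares were 35.8% and 11.3%, against 29.1% and 50.003% of all 18193 genes. By array, 17 members were detected on the GS, 24 on the mGS, 23 on the ES and 17 on the knockout array. These were 32.1%, 45.3%, 43.4% and 32.1% of the members, while the same limit was passed by 58.9%, 59.9%, 61.0% and 60.8% of all genes. Trophectoderm markers had the highest share detected on each array, up to 8 of 12 on the mGS array. Mesoderm markers had the lowest share on the GS, mGS and ES arrays, and neuroectoderm markers on the knockout array, with 1 of 12. Of the 34 members detected somewhere, 15 had their highest signal on the ES, 9 on the mGS, 7 on the knockout and 3 on the GS array. Some of these peaks lay close to the limit, such as Evx1 on the ES array at 84.9 and Gata6 on the mGS array at 97.7. The same count was not made over all genes, so these numbers do not rank the arrays. Fewer cells with a transcript and less of it per cell cannot be told apart in such bulk samples.

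**Figure D1:**
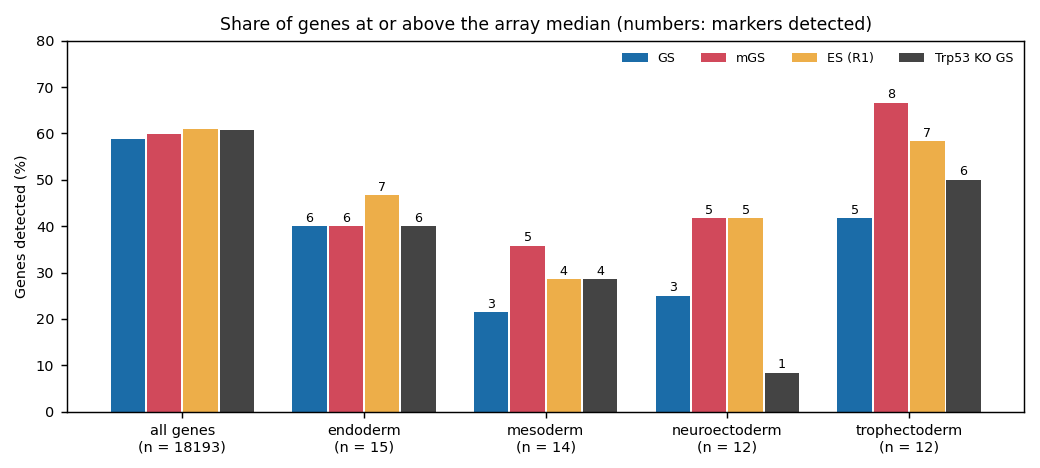
Percent of genes with a signal at or above the array median, for all 18193 genes and for the 4 groups of lineage markers, on 1 array each of GS, mGS, ES and Trp53 knockout GS cells; numbers over the bars count the markers detected. The marker groups lie below all genes on each array, except trophectoderm on the mGS array (8 of 12), and the knockout array has 1 of 12 neuroectoderm markers.

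The endoderm list holds transcription factors, secreted plasma proteins, basement membrane genes, the adaptor Dab2 and the receptor Pdgfra. Most regulators of primitive and definitive endoderm were near or under the limit: Gata4, a zinc finger factor of primitive endoderm, was detected on the ES array alone, at 90.3, and its relative Gata6 on the mGS array alone, at 97.7. Sox17 and Sox7, the SOX factors of endoderm, the liver and visceral endoderm factor Hnf4a, and the plasma protein genes Ttr and Apoa1 were detected on no array.

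Foxa2 and Afp were exceptions, and their signal lay on the germline arrays. Foxa2, a forkhead factor of definitive endoderm and the node, read 685 on the GS, 157 on the knockout, 45.9 on the mGS and 57.8 on the ES array. The GS array stood alone at the top. Its signal was 4.37-fold that of the knockout array and at least 8.29-fold that of the mGS array. Afp, which encodes the fetal plasma protein of yolk sac and liver, gave signals of 2646 for GS, 2784 for knockout GS, 35.5 for mGS and 1.40 for ES cells. The germline arrays were alike, with a log2 difference of 0.07, and GS was at least 32.01-fold above the mGS array. Of its 5 probe sets, 3 gave this pattern. The mean over all 5, which includes 1 set under the limit on every array and 1 detected on the knockout array only, left a bound of -0.37 on the log2 scale for mGS against GS. Alb, the albumin gene 14.1 kb from Afp and active with it in fetal liver, read between 7.71 and 30.5 and was detected on no array, a gene looked up after the values were seen.

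The 250 bases before the start of Afp are shown because the gene was the endoderm marker with the clearest split between the arrays. The window is chr5:90490464-90490713 on the plus strand of GRCm38.p6, from RefSeq, printed 5′ to 3′ with the TATA box (TATAAA) and the CCAAT box (CCAAT, here on the other strand) in capitals.
Afp: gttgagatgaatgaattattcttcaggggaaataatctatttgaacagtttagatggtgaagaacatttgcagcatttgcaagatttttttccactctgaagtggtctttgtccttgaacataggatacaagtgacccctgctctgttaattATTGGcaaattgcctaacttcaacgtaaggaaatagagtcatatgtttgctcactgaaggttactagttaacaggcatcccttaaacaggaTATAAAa
It holds 1 CpG, at an observed over expected ratio of 0.125, and is 36.0% G and C. A TATAAA on either strand stood in 12.4% of all 32851 such windows and a CCAAT in 33.8%; a match is a description of letters only.

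Basement membrane genes were the part of the endoderm list that was widely detected. Parietal endoderm is known for secreting them in bulk, but fibroblasts and many other cells make them too. Lamb1, the laminin beta 1 chain, read 3120 on the GS, 2360 on the mGS, 3621 on the ES and 9145 on the knockout array. The knockout array was the high one, 2.93-fold above GS, while the other 3 lay within 2-fold of each other. The other 2 detected probe sets of Lamb1 gave log2 differences of 1.36 and 1.48 for knockout against GS, close to the 1.55 of the chosen set. Lama1, the laminin alpha 1 chain of early embryonic basement membranes, read 106 on the GS, 802 on the mGS, 369.7 on the ES and 73.0 on the knockout array. The mGS and ES arrays were thus above both germline arrays, by at least 3.48-fold in the narrowest pair, and mGS was 2.17-fold above ES.

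Col4a1 and Col4a2 encode the chains of type IV collagen and lie head to head on chromosome 8, where their gene records overlap by 85 bases. Col4a1 read 165 on the GS, 613 on the mGS, 1872 on the ES and 347 on the knockout array. Col4a2 read 71.5, 202, 723 and 182 in the same order. The 4 arrays had the same order for both genes, from GS through knockout and mGS to ES. The ES array was 3.05-fold above mGS for Col4a1 and 3.58-fold for Col4a2, and knockout was 2.10-fold and at least 2.20-fold above GS. Dab2, an endocytic adaptor of primitive endoderm, read 43.3 on the GS, 192 on the mGS, 391 on the ES and 80.05 on the knockout array, with ES 2.04-fold above mGS. Its other 3 probe sets were under the limit on the mGS array, and the mean of its sets left bounds of 0.43 on the log2 scale for ES against both mGS and GS. Pdgfra, the growth factor receptor that marks primitive endoderm and mesenchyme, read 388 on the GS, 376 on the ES and 351 on the knockout array and only 55.4 on the mGS array. It was therefore low on the mGS array alone, at least 4.70-fold under GS, although the mean of its 3 probe sets left a bound of only -0.12 on the log2 scale.

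Fibroblast markers were highest on the ES array, as Col4a1, Col4a2 and Dab2 were. Of 18 such markers 7 were detected on the GS, 9 on the mGS, 17 on the ES and 10 on the knockout array, and their summed signal was 1547, 5705, 63055 and 3867. Their median signal was 48.2, 98.8, 2377 and 133, so knockout lay above mGS by the median and by the number detected, and below it by the sum. The highest on average, Acta2, S100a4 and Col1a1, read 10566, 13496 and 2805 on the ES array and 2319, 306 and 245 on the mGS array. The lumican gene Lum was detected on no array. Col4a1, Col4a2, Dab2 and Pdgfra, each higher on the ES than on the mGS array, went in the same direction as the list, and Lama1 went the other way. The part of fibroblast RNA in these differences was not tested.

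**Figure D2:**
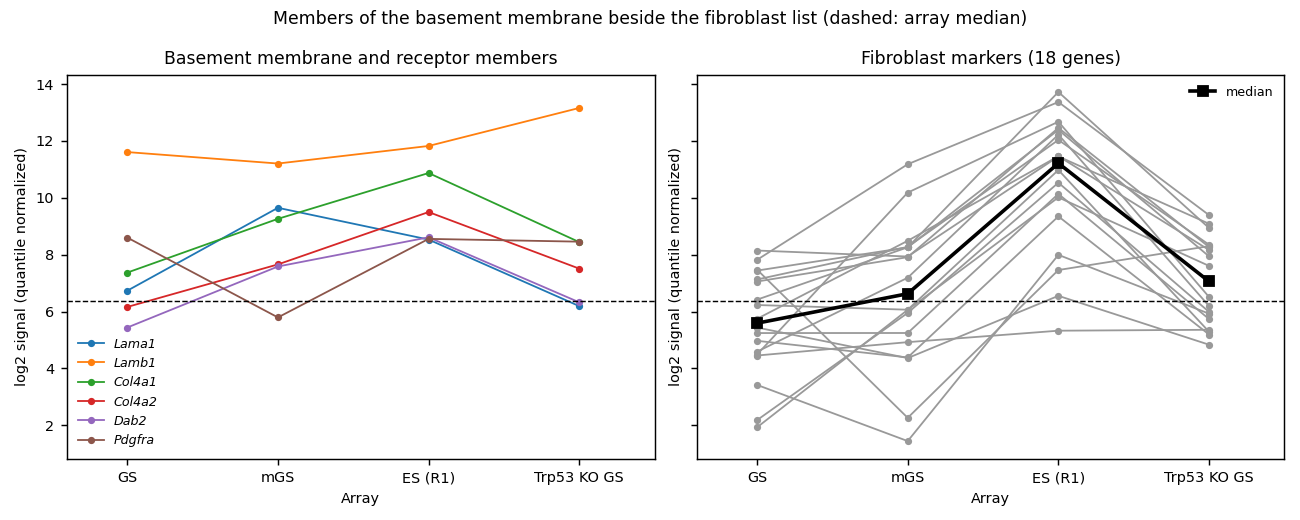
log2 signal on the 4 arrays of 6 endoderm markers (left) and of 18 fibroblast markers (right, black line their median), with lines joining the values of a gene and the array median dashed. The fibroblast median peaks on the ES array, as Col4a1 (1872) and Col4a2 (723) do, whereas Lamb1 peaks on the knockout array (9145) and Lama1 on the mGS array (802).

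Mesoderm and primitive streak markers were near the limit except for Bmp4 and Eomes. Bmp4, the signalling ligand that induces streak and primordial germ cells, gave signals of 1421 for mGS, 433 for ES, 45.8 for GS and 70.8 for knockout GS cells. Neither germline array reached the limit, so mGS was at least 17.2-fold and ES at least 5.24-fold above GS; ES was 3.28-fold below mGS. Eomes, a T-box factor of streak and trophoblast, read 146 on the mGS, 314 on the ES, 44.4 for GS and 29.6 for knockout GS cells. The order was the same for its other probe set on the mGS and ES arrays, with ES 2.15-fold above mGS by the chosen set and a log2 difference of 0.74 by the other.

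The remaining detected mesoderm genes read at most 225 on any array. Mixl1, a homeobox gene of the primitive streak, read 96.1 on the GS, 83.5 on the mGS, 154 on the ES and 30.2 on the knockout array. The bHLH genes Mesp1 and Mesp2, which mark cardiac and somitic precursors and lie 17.1 kb apart on chromosome 7, did not share a pattern. Mesp1 was detected on the mGS array at 142 and the knockout array at 93.8, and Mesp2 on the GS array at 137 and the knockout array at 225. Tbx6, a T-box factor of paraxial mesoderm, was detected on both germline arrays, at 98.5 and 107, and read 2.64 on the mGS and 26.2 on the ES array. Hand1, a bHLH factor of extraembryonic mesoderm and trophoblast, was detected on the mGS array at 137 and the knockout array at 94.6, and the homeobox gene Evx1 on the ES array at 84.9. Kdr, Hand2, Wnt3, Gsc, Tal1 and Msgn1 were detected on no array.

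Of the 12 neuroectoderm markers 7 were detected, and 3 of them, Neurod1, Tubb3 and Gap43, were higher in both pluripotent cultures. Pax6, Sox1, Neurog2, Fabp7 and Nkx6-1, which mark neural progenitors, were detected on no array. Neurod1, a bHLH factor of neuronal differentiation, gave signals of 501 for mGS, 600.5 for ES, 29.9 for GS and 45.7 for knockout GS cells. Tubb3, the neuronal beta tubulin, read 1077 and 874 on the mGS and ES arrays and 112 and 39.2 on the GS and knockout arrays. Gap43, a growth cone protein gene, read 519.7 on the mGS, 565 on the ES, 28.1 for GS and 26.1 for knockout GS cells. In these 3 genes the arrays formed non-overlapping pairs, with the narrowest cross pair 6.06-fold for Neurod1, 7.80-fold for Tubb3 and 6.29-fold for Gap43. Of all 12897 genes detected, 7.65% were at least 2-fold higher in every cross pair of the same split. Neurod1 and Gap43 were undetected on the germline arrays, so their folds are lower bounds. Between mGS and ES each of the 3 lay within 2-fold. Map2, a dendritic microtubule protein gene, was weaker, with 116 on the mGS and 216 on the ES array and no detection on the others.

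Zic1 and Olig2 were each found on a single array. Zic1, a zinc finger factor of the dorsal neural tube, read 5085 on the GS array, 1.75 on the mGS, 77.8 on the ES and 69.3 on the knockout array. The GS array was at least 61.5-fold above every other, the knockout included, and a weaker probe set also had GS at the top, by at least 3.91-fold. Its neighbour Zic4, which overlaps it by 138 bases in the gene records, was detected on no array and read 18.9 on the GS array. Olig2, a bHLH factor of oligodendrocyte and motor neuron precursors, read 1182 on the ES array, 13.5 on the knockout, 1.42 on the mGS and 0.897 on the GS array. The ES array exceeded each other array by 14.3-fold or more, and its relative Olig1, which lies 41.1 kb away on chromosome 16, read 1996 on that array and between 3.35 and 39.9 on the others. Nes, the intermediate filament gene of neural progenitors, read 345 on the GS, 126 on the mGS, 46.0 on the ES and 599.8 on the knockout array. It was higher on the germline arrays by the chosen probe set, but another of its sets gave a log2 difference of 0.18 for mGS against GS, and the mean of 3 sets one of -0.76.

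The windows before the starts of Neurod1 and Olig2 are shown because both are bHLH genes of neural fate, the first detected in both pluripotent cultures and the second in ES cells only. Neurod1 is chr2:79456637-79456886 on the minus strand and Olig2 chr16:91225300-91225549 on the plus strand of GRCm38.p6, from RefSeq. Capitals mark the GC box (GGGCGG), the CCAAT box (CCAAT) and the TATA box (TATAAA) on either strand.
Neurod1: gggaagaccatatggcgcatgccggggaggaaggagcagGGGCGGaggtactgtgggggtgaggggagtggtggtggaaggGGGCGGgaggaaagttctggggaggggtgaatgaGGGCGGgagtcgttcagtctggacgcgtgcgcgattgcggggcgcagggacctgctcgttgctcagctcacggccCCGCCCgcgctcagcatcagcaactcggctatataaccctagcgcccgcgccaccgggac
Olig2: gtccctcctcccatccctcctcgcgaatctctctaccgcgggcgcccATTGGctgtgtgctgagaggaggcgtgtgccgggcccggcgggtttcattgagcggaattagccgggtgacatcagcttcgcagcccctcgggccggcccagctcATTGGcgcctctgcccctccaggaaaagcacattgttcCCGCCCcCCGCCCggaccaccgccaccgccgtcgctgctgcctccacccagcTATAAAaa
Each window holds 22 CpGs, at observed over expected ratios of 0.841 for Neurod1 and 0.821 for Olig2. Neurod1 has 4 GC boxes, and Olig2 has 2 GC boxes, 2 CCAAT boxes and 1 TATA box. A GC box stood in 32.7% of all such windows.

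Trophectoderm markers were led by Tfap2c and the simple epithelial keratins, and 9 of the 12 were detected on at least 1 array. Cdx2, the homeobox factor that sets up the trophectoderm, the trophoblast stem cell factor Elf5 and the placental gene Plac1 were detected on no array. Tfap2c, an AP-2 factor of trophoblast and germ cells, gave signals of 2124 for mGS, 2013 for ES, 76.4 for GS and 94.2 for knockout GS cells. All 3 of its probe sets gave this split, and its narrowest cross pair was 21.4-fold, the widest of the markers higher in the pluripotent cultures. Tead4, a cofactor-dependent factor upstream of Cdx2, was detected on the mGS array alone, at 177, and read 79.4 on the ES array.

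Krt8 and Krt18 encode the type II and type I partners of the filaments of simple epithelia. Krt8 read 98.8 on the GS, 734 on the mGS, 1468 on the ES and 95.3 on the knockout array. Krt18 read 268, 1160.4, 1688 and 112 in the same order. Both were higher on the mGS and ES arrays, by 7.43-fold and 4.32-fold in the narrowest pair. Krt18 was 2.40-fold lower on the knockout than on the GS array, where the log2 difference of Krt8 was -0.05. Krt7, another type II keratin, was detected on the mGS array at 119 and the ES array at 99.8.

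The windows before Krt8 and Krt18 are shown because the partners lie 23.9 kb apart on chromosome 15 and were both higher on the mGS and ES arrays. Krt8 is chr15:102004343-102004592 on the minus strand and Krt18 chr15:102027966-102028215 on the plus strand of GRCm38.p6, from RefSeq. Neither holds a GC box, CCAAT box or TATA box as spelled above, so no letters are in capitals.
Krt8: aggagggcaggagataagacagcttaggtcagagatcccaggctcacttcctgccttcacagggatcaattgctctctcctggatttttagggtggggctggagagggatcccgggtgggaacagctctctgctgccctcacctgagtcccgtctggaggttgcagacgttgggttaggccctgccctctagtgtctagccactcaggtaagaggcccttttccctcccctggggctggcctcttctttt
Krt18: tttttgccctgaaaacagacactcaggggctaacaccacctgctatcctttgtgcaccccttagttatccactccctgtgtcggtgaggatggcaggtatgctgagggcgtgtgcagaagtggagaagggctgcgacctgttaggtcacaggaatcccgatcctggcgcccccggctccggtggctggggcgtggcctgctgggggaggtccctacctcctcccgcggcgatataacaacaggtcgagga
They differ in CpG content, with 3 CpGs for Krt8 at a ratio of 0.143 and 12 for Krt18 at 0.527.

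The other trophectoderm markers were flat, weak or higher on the knockout array. Ets2, a factor of trophoblast stem cell maintenance, read between 309 and 581 over the 4 arrays, and Gata2, a factor of trophoblast giant cells, between 118 and 199.6. Gata3, an early trophectoderm factor, was detected on the ES array alone, at 90.6. Esx1, an X-linked homeobox gene of placenta and spermatogenic cells, read 129.9 on the GS, 94.5 on the mGS, 70.6 on the ES and 556 on the knockout array. The knockout array stood alone at the top, 4.28-fold above GS.

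**Figure D3:**
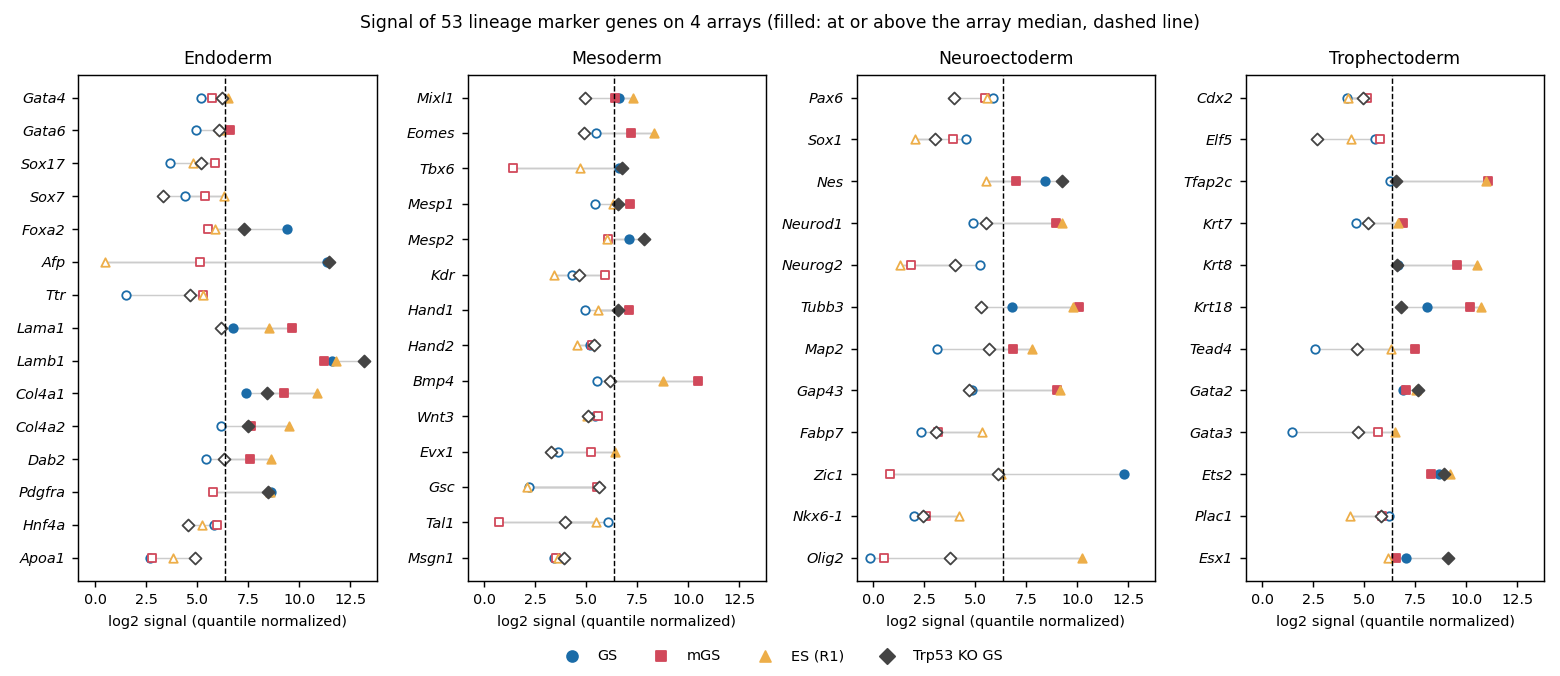
log2 signal of the 53 lineage markers on the GS, mGS, ES and Trp53 knockout GS arrays, with filled symbols at or above the array median (dashed line) and open symbols under it. Neurod1, Gap43 and Bmp4 sit above the line on the mGS and ES arrays only, Afp on the germline arrays, Zic1 on the GS array alone (5085) and Olig2 on the ES array alone (1182). Tfap2c, Krt8, Krt18 and Tubb3 are higher on the mGS and ES arrays but pass the line elsewhere too. Both keratins do so on all 4 arrays, Tubb3 on the GS and Tfap2c on the knockout array.

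Set against GS, the mGS array had 12 lineage markers at least 2-fold higher and 5 lower. Those higher were the basement membrane genes Lama1, Col4a1 and Col4a2 with Dab2, then Bmp4, Neurod1, Tubb3, Gap43, Tfap2c, Krt8, Krt18 and Tead4. Those lower were Foxa2, Afp, Pdgfra, Nes and Zic1. Of the 53 members 30 could be compared, so the shares were 40.0% and 16.7%, against 15.3% and 16.5% of all 11981 genes compared. The median log2 difference of the 30 was 0.63, and that of all genes compared was -0.04. A member detected on a single array of the pair had to differ, which was so for 19 of the 30. Without a limit the median over all 53 was 0.82 against -0.04 for all genes. That median takes in 23 members under the limit on both arrays, whose signals 1 array cannot order. By lineage, 4 endoderm markers were higher and 3 lower among 9 compared, and 1 mesoderm marker was higher and none lower among 7. No mesoderm marker could be called lower, since those detected on the GS array lay within 2-fold of the limit there. Of neuroectoderm markers, 3 were higher and 2 lower among 6, and of trophectoderm markers 4 were higher and none lower among 8.

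The comparison of ES with GS, which uses the same GS array, gave 14 members higher and 4 lower of 30. The shares were 46.7% and 13.3%, beside 17.4% and 17.2% of all genes, 34.6% in either direction. The genes called at least 2-fold higher here but not for mGS were Eomes, Map2 and Olig2, whereas Tead4 was not detected on the ES array. For mGS against GS, Eomes and Map2 gave lower bounds of 1.77-fold and 1.41-fold, so a rise past 2-fold remained possible there. The other Eomes probe set gave a bound of 1.19 on the log2 scale for that pair. Pdgfra, low on the mGS array, had a log2 difference of -0.05 for ES against GS.

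Between the pluripotent cultures most markers lay within 2-fold. Of 29 compared, 20 were within 2-fold, 6 were higher on the ES array and 3 lower. The shares past 2-fold were 20.7% and 10.3%, against 6.90% and 5.13% of all genes, with a median of 0.13 beside 0.00. Those higher were Col4a1, Col4a2, Dab2, Pdgfra, Eomes and Olig2, and those lower Lama1, Bmp4 and Tead4. Krt8 lay at the edge, just short of 2-fold. Of the fibroblast markers compared here, 16 of 17 exceeded 2-fold in favour of the ES array.

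Against GS, the knockout array had 4 lineage markers higher, Lamb1, Col4a1, Col4a2 and Esx1, and 3 lower, Foxa2, Zic1 and Krt18. With 21 members compared the shares were 19.05% and 14.3%, against 9.77% and 6.93% of all genes, and the medians were 0.18 and 0.07. Afp, Pdgfra, Krt8 and Ets2 had log2 differences of 0.07, -0.14, -0.05 and 0.25. No member of the mesoderm list passed 2-fold in either direction among 5 compared, but only Tbx6 and Mesp2 were detected on both arrays. Mixl1, Mesp1 and Hand1 read 96.1, 93.8 and 94.6 on the array that detected them. Such signals lie within 2-fold of the limit, so these bounds could not reach 2-fold. With 32 added to each signal before taking logs, 2 members were higher in place of 4. Of 10 fibroblast markers compared, 6 passed 2-fold upward for the knockout and none downward, and their part in the collagen difference was not tested.

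**Figure D4:**
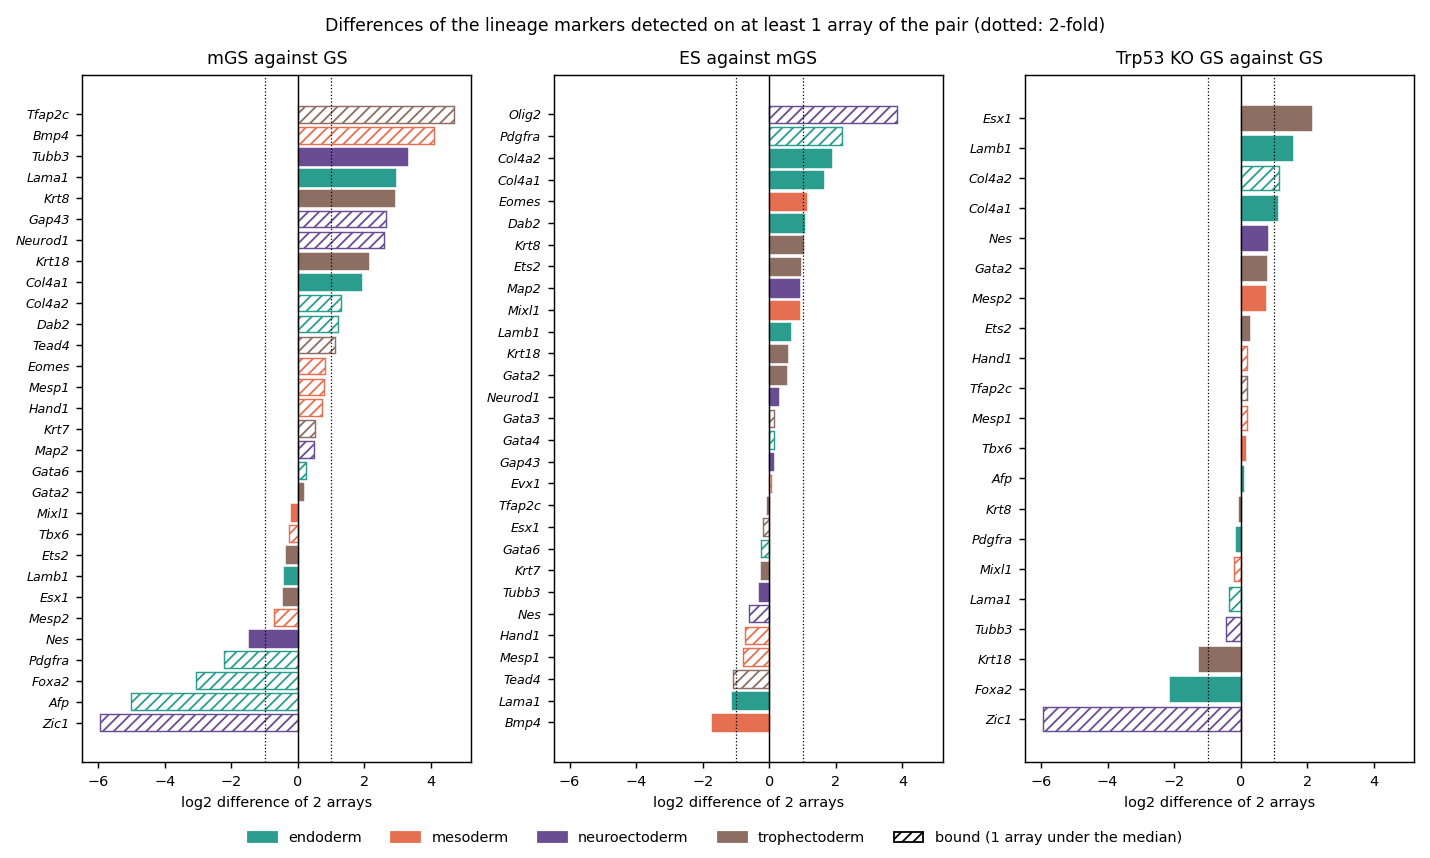
log2 differences of the lineage markers detected on at least 1 array of each pair, for mGS against GS (30 genes), ES against mGS (29) and Trp53 knockout GS against GS (21), coloured by lineage; hatched bars are lower bounds on the size, where 1 array lay under the limit, and dotted lines mark 2-fold. The panel for mGS runs from Zic1 (-5.94) to Tfap2c (4.68), and most bars of the ES panel lie within 2-fold.

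Asked of both pluripotent against both germline arrays, 9 members were at least 2-fold higher in every cross pair, namely Lama1, Dab2, Bmp4, Neurod1, Tubb3, Gap43, Tfap2c, Krt8 and Krt18. That was 26.5% of the 34 detected members, against 7.65% of all 12897 genes detected. Afp and Nes were lower in every cross pair, 5.88% of the members against 8.38% of all genes. The 9 came from all 4 lists, 2 from endoderm, 1 from mesoderm, 3 from neuroectoderm and 3 from trophectoderm. Neither other way of pairing the arrays, by the dap control included, put a member past 2-fold in all cross pairs. Among all genes such genes made up 0.248% and 0.256% for the dap split and 0.194% and 0.140% for the other. At shares that low an absence among 34 members carries no information, and the part of the control difference was not tested.

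Other genes of the same lineages, from 4 further lists, showed what the members did on a wider set. Of 22 other endoderm genes measured, 16 were compared between mGS and GS, with 5 higher and 2 lower (31.2% and 12.5%, beside 15.3% and 16.5% of all genes). Apoe, an apolipoprotein gene, was 31.2-fold and Sparc, a matrix protein gene of parietal endoderm, 12.2-fold higher, while Plat, the tissue plasminogen activator gene, was at least 15.8-fold and the homeobox gene Hhex 7.62-fold lower. Of 24 other mesoderm genes 12 were compared, with 2 higher and 6 lower, shares of 16.7% and 50%, so that the share higher was near that of all genes. The TGF-beta family ligands Nodal and Lefty2 exceeded GS by at least 32.1-fold and 9.10-fold, and the forkhead genes Foxf1 and Foxc2 at least 15.2-fold and 13.7-fold lower. The other mesoderm genes lower on the mGS array thus outnumbered those higher. Among the mesoderm members none could be called lower. Those detected on the GS array, Mixl1, Tbx6 and Mesp2, read 96.1, 98.5 and 137 there, within 2-fold of the limit. The further lists also overlap: of the other mesoderm genes lower, Hhex is also on the other endoderm list, Lhx1 on the spermatogonial list and Twist1 on the fibroblast list.

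Of 22 other neuroectoderm genes 13 were compared between mGS and GS, with 7 higher and 3 lower, shares of 53.8% and 23.1% beside the same 15.3% and 16.5% of all genes. Stmn2, a neuronal microtubule regulator gene, was at least 74.1-fold and the homeobox gene Otx2 at least 13.2-fold higher. Nefm, a neurofilament gene, was 21.9-fold and Sox3, a SOX factor of neural progenitors and spermatogonia, 8.15-fold lower. Members of the list were thus found on both sides. Of 20 other trophectoderm genes 16 were compared, with 6 higher and 1 lower, shares of 37.5% and 6.25%. The imprinted placental gene Phlda2 was 10.7-fold, and Id2, an inhibitor of bHLH factors, at least 10.02-fold higher, and the placental homeobox gene Dlx3 at least 3.997-fold lower.

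For the knockout against GS, the further lists had 4 higher and 2 lower of 14 endoderm genes, 1 and 2 of 7 mesoderm genes, 2 and 1 of 11 neuroectoderm genes and 2 and 3 of 15 trophectoderm genes. The shares higher were 28.6%, 14.3%, 18.2% and 13.3%, and those lower 14.3%, 28.6%, 9.09% and 20%, beside 9.77% and 6.93% of all genes. Foxf1, a forkhead factor of lateral mesoderm, was 5.03-fold higher, reading 6311 against 1255, and Lhx1, a LIM homeobox gene, at least 10.7-fold lower. Nefm was 18.4-fold lower, reading 249 against 4571, and Sox3 3.16-fold higher. The chemokine receptor gene Cxcr4 and the scavenger receptor gene Cubn exceeded GS by at least 3.90-fold and 3.13-fold, while Apoe was at least 3.29-fold and the nidogen gene Nid1 2.06-fold lower. Foxc2 was 2.44-fold lower, and Nefl 2.43-fold higher. Among trophectoderm genes Phlda2 was 9.24-fold and Wnt7b at least 2.35-fold higher, and Dlx3 and Cdh3 were 3.14-fold and 2.30-fold lower.

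Where another probe set of a member could be compared, it opposed no call past 2-fold. The members had 106 probe sets, with several for 28 genes. None of the 51 differences past 2-fold over the 4 comparisons was opposed past 2-fold by another set, but many had no other set to compare. Foxa2, Lama1, Bmp4, Tubb3, Gap43, Krt18, Olig2 and Esx1, among others, have 1 probe set. Other sets under the limit on both arrays, as for Tead4, were not compared either. For Nes another set had the opposite sign within 2-fold, at 0.18 for mGS and 0.26 for ES against GS. Over all genes, log2 differences from separate probe sets of a gene had a standard deviation of 0.45 to 0.61, depending on the comparison. Hnf4a, Hand2 and Pax6, undetected by the chosen set, had another set just above the limit on 1 array: 115 for Hnf4a and 99.98 for Pax6 on the mGS array, and 106 for Hand2 on the ES array.

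The promoters of undetected members differed from those of undetected genes at large. RefSeq windows of 250 bases before the start were matched for 42 of the 53 members. The 16 members detected on no array had a median of 12 CpGs and an observed over expected ratio of 0.683, and the 26 detected members had 14.5 and 0.630. Over all genes on the arrays with a window, the 4023 detected on no array had 4.0 CpGs and 0.269, and the 10429 detected genes 16.0 and 0.712. The undetected lineage markers were thus nearer to detected than to undetected genes in CpG content, as a description without a test. By lineage the median count was highest for neuroectoderm, 22, and lowest for endoderm, 9.5, and Zic1 and Afp, both high on the GS array, had 27 and 1.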

How the data were processed

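Total RNA of 4 cultures was extracted with Trizol and hybridised as biotin-labelled cRNA to Affymetrix arrays, per the labels' protocols. The authors deposited linear intensities, a single value for each probe set on each array, with a mean of 500.003 on each array after trimming 2% at each end. The probe summary method is not stated in the labels or file header. Of 45101 probe sets, 64 controls were set aside. The log2 intensities were quantile normalized over the 4 arrays, which hides changes in total RNA. Of 45037 probe sets used, 34945 had 1 symbol, 932 several (left out) and 9160 none in the platform annotation, which may be old. A gene took its probe set of highest mean. A signal under the array median (6.37 on the log2 scale) was raised to it and gave a bound, written "at least". Differences were called at 2-fold; with 1 array a group there is no test, and the number of arrays limits the precision. The members, lists and comparisons were chosen with earlier results of these data known. Named genes of the further lists are the 2 highest and 2 lowest past 2-fold, with Twist1 added as a gene of 2 lists. Marker lists name the 3 members of highest mean, or fewer. Lum, Alb, Zic4 and Olig1 were chosen after their values were seen. The steps were tested on simulated data. The 9 alternatives were 2 other scalings, averaging over probe sets, 2 choices of probe sets, 2 other floors, no floor and a pseudocount of 32. Values were computed in Python 3.11.15 (pandas 2.3.3, numpy 2.4.6) and plotted with matplotlib 3.10.9.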

Additional observations from a re-analysis of the deposited data

How the results depend on the processing

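No called difference of a member changed sign under any of the 9 alternatives, and 31 of 51 stayed past 2-fold in all 9. Krt8, for mGS and for ES against GS, and Esx1, for the knockout against GS, had a value in 8 alternatives. They stayed past 2-fold in all 8. The limit of detection moved the counts most. At the 30th percentile the members detected were 34 on the GS, 43 on the mGS, 39 on the ES and 34 on the knockout array, and at the 60th percentile 9, 14 and 11 on the GS, mGS and knockout arrays. For mGS against GS, 19 members were higher and 8 lower with the limit at the 30th percentile, and 24 and 9 without a limit. With the mean of probe sets, 2 were lower. For ES against GS the lower members numbered 7 at the 30th percentile, 10 without a limit and 2 with the mean of probe sets, and the higher ones 26 without a limit. For ES against mGS, 12 were higher and 12 lower without a limit, and 6 lower at the 30th percentile. For the knockout against GS, 8 were higher and 6 lower at the 30th percentile, 16 and 12 without a limit, and 2 higher with the pseudocount. Counts without a limit rest on signals that 1 array cannot order. The cause of the other moves was not tested. Single log2 differences near 2-fold depended on these settings. For mGS against GS, Dab2 ranged from 0.32 to 2.15, Tead4 from 0.17 to 4.90 and Col4a2 from 0.39 to 1.497. For the knockout against GS, Col4a2 ranged from 0.24 to 1.35 and Krt18 from -1.36 to -0.80. Col4a1 lay under 2-fold with the pseudocount, at 0.94, and with centring on array medians, at 0.96, a scaling that moved all genes between these 2 arrays by a median of -0.11. No paired analysis was possible because each group has 1 array. For the same reason no replicate could be left out.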
